A study of Mus musculus with 3 samples.

Results

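The kainate receptor subunit genes *Grik1*, *Grik2*, *Grik3*, *Grik4* and *Grik5* were followed through the nuclei of the adult mouse basolateral amygdala (BLA). They were chosen by name, as the 5 of 32285 genes in the count matrices that encode this receptor family, and their levels were described in populations of nuclei that were gated on other genes. Kainate receptors are tetrameric glutamate-gated cation channels. The subunits GluK1, GluK2 and GluK3, encoded by *Grik1*, *Grik2* and *Grik3*, can form channels by themselves, whereas GluK4 and GluK5, encoded by *Grik4* and *Grik5*, bind glutamate with higher affinity and reach the cell surface in channels only together with GluK1 to GluK3. In the amygdala, receptors with GluK1 are known for their action on GABAergic interneurons and on excitatory transmission, and GluK2 is the widespread subunit of the forebrain.

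Single-nuclei RNA sequencing (snRNAseq) labels the RNA of each nucleus with a shared barcode and each captured transcript with a random tag, the UMI, by which copies made in PCR are collapsed before counting. BLA was microdissected from male C57BL/6NRj mice labelled p56, with both hemispheres of 4 male brains from the same litter pooled into each dataset. There was 1 condition, with no second genotype or treatment, and the comparisons below are therefore between populations of nuclei in the same libraries. Libraries 2 and 3, the labelled replicates 2 and 3, held 3792 and 4588 barcodes with 24354374 and 33049068 UMIs, and 3772 and 4512 barcodes were kept after quality filters. Library 1 stood apart, with only 819 barcodes and 8078394 UMIs, and it entered only as an alternative. Libraries 2 and 3 shared 7 barcode sequences. The libraries, and not the nuclei, were the replicates (n = 2). Neither the labels nor the methods settle whether they came from separate pools of brains. With library as a block, the p-values reflect only how far differences between populations vary over these 2 libraries. The estimate of that spread draws on all genes tested, and the spread may be technical.

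Glutamatergic nuclei had at least 2 UMIs of the vesicular glutamate transporter genes *Slc17a7* and *Slc17a6* and none of the GABA synthesis genes *Gad1* and *Gad2*. GABAergic nuclei had at least 2 UMIs of *Gad1* and *Gad2* and none of the transporter genes. Both were limited to less than 0.1% of UMIs from the glutamate uptake genes *Slc1a2* and *Slc1a3*, and astrocyte nuclei had at least 0.6%. These gates gave 484 and 208 glutamatergic, 388 and 677 GABAergic and 532 and 1191 astrocyte nuclei in libraries 2 and 3. The median depth was 15526 and 13115 UMIs in glutamatergic, 7646 and 7246 in GABAergic and 2745 and 3024 in astrocyte nuclei. Because the classes differed this much in depth, levels are given as CPM, the usual scaling to a fixed total of the UMIs summed over a population in a library, and shares of nuclei with a UMI are also given after each nucleus was thinned at random to 1200 UMIs. The gate genes chose the nuclei and are not results.

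Each class was highest in the markers of its name, with some overlap between the classes. The marker lists include the gate genes, so this order was partly set by the gates and is no independent support for them. Summed over 8 astrocyte markers, the level was 27274 and 30858 CPM in astrocyte nuclei, 411 and 613 CPM in glutamatergic and 770 and 514 CPM in GABAergic nuclei. Of 6 GABAergic markers, glutamatergic nuclei held 8.93 and 19.5 CPM in sum, with *Gad1* and *Gad2* at 0 by the gate. Astrocyte nuclei held 336 and 278 CPM of them, and GABAergic nuclei 1136.5 and 968 CPM. The sum of 7 glutamatergic markers was 1255 and 893 CPM in glutamatergic nuclei. It was 490 and 395 CPM in GABAergic nuclei, with *Slc17a7* and *Slc17a6* at 0 by the gate, and 105 and 72.7 CPM in astrocyte nuclei. Among astrocyte nuclei, 61 of 532 (11.5%) and 106 of 1191 (8.90%) had a UMI of a transporter or GABA synthesis gene, so that some neuronal RNA was present in that class. Whether that RNA came from the same nucleus or from free RNA was not tested.

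On the mouse assembly GRCm38, *Grik1* (ENSMUSG00000022935) lies on the minus strand of chromosome 16 at 87895900 to 88290265 and spans 394.4 kb. *Grik2* (ENSMUSG00000056073) is the longest member, on the minus strand of chromosome 10 at 49094833 to 49788766, with 693.9 kb. It overlaps 2 annotated genes on the same strand, *Gm26543* and *Gm47018*, and reads in these overlaps could not be assigned with certainty. *Grik3* (ENSMUSG00000001985) lies on the plus strand of chromosome 4 at 125490700 to 125714173 and spans 223.5 kb. *Grik4* (ENSMUSG00000032017) lies on the minus strand of chromosome 9 at 42518135 to 42944493, with 426.4 kb. *Grik5* (ENSMUSG00000003378) is the shortest, on the minus strand of chromosome 7 at 25009849 to 25072346, with 62.5 kb. Nuclear RNA is rich in unspliced transcripts, so levels of different members are set side by side only per 100 kb of gene length. The sources used here do not say whether intronic reads were counted, and the scaling sets the order: without it, mean levels in glutamatergic nuclei were 1614 CPM for *Grik2* and 162 CPM for *Grik5*.

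On the scale per 100 kb, *Grik5* and *Grik2* led in glutamatergic nuclei, whereas *Grik1* stood beside them in GABAergic nuclei. In glutamatergic nuclei, the level per 100 kb was 259 ± 30.2 CPM for *Grik5*, 233 ± 32.9 for *Grik2*, 64.3 ± 6.38 for *Grik3*, 50.1 ± 19.1 for *Grik1* and 13.6 ± 2.23 for *Grik4* (mean ± SD, n = 2 libraries). The GABAergic levels per 100 kb were 313 ± 36.6 CPM for *Grik2*, 229 ± 38.9 for *Grik1*, 183 ± 17.4 for *Grik5*, 128 ± 4.65 for *Grik3* and 40.9 ± 0.205 for *Grik4*. In astrocyte nuclei, *Grik5* with 153 ± 29.8 and *Grik2* with 105 ± 9.69 CPM per 100 kb were above *Grik1* (15.7 ± 8.52), *Grik3* (9.01 ± 4.68) and *Grik4* (7.54 ± 2.62). On this scale *Grik4* had the lowest mean in each of the 3 classes, an order that depends on the scaling. Without it, mean *Grik5* (115 CPM) was below *Grik4* (175 CPM) in GABAergic nuclei. In astrocyte nuclei, unscaled *Grik3* (20.1 CPM) was below *Grik4* (32.1 CPM). All further levels are CPM without the correction for length and are compared only within a gene.

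Taken as whole classes, *Grik1*, *Grik3* and *Grik4* were lower and *Grik5* was higher in glutamatergic than in GABAergic nuclei. *Grik1*, the subunit gene of GluK1, stood at 144 and 251 CPM in the glutamatergic nuclei of libraries 2 and 3 and at 1013 and 796 CPM in the GABAergic nuclei. Both GABAergic values lay well above both glutamatergic ones. In the edgeR quasi-likelihood test over all genes, the log2 difference of glutamatergic from GABAergic nuclei was -2.11 (SE 0.271, adjusted p = 2.19e-05). *Grik4*, a high-affinity subunit gene, stood at 51.2 and 64.6 CPM in glutamatergic and at 174 and 175 CPM in GABAergic nuclei. The log2 difference was -1.54 (SE 0.162, adjusted p = 2.84e-06 by edgeR). *Grik3*, whose product GluK3 forms channels of low glutamate sensitivity, fell from 293 and 278 CPM in GABAergic to 154 and 134 CPM in glutamatergic nuclei, a log2 difference of -0.92 (SE 0.152, adjusted p = 0.000262 by edgeR).

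*Grik5*, the other high-affinity subunit gene, went the opposite way. Its level was 176 and 149 CPM in glutamatergic and 122 and 107 CPM in GABAergic nuclei, and the log2 difference was 0.57 (SE 0.120, adjusted p = 0.00211 by edgeR). Thinning every nucleus to 1200 UMIs ended this call, with an adjusted p of 0.0830 and a log2 difference of 0.51. *Grik2* was the most even member. It stood at 1453 and 1776 CPM in glutamatergic and 1993 and 2352 CPM in GABAergic nuclei. The log2 difference was -0.35 (95% interval -0.66 to -0.05) and did not pass (edgeR adjusted p = 0.0985). It passed when library totals replaced the TMM scaling factors (adjusted p = 0.0143 by edgeR). Of the 13391 genes tested, 22.5% were called in this comparison, 11.7% higher and 10.8% lower in glutamatergic nuclei, beside 4 of the 5 members, 1 higher and 3 lower.

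With library 1 added, none of these 4 calls held: the edgeR adjusted p was 0.0943 for *Grik1*, 0.209 for *Grik3*, 0.260 for *Grik4* and 0.0944 for *Grik5*, with the directions kept. The gates found only 7 GABAergic and 6 astrocyte nuclei in library 1, against 42 glutamatergic nuclei.

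**Figure D1:**
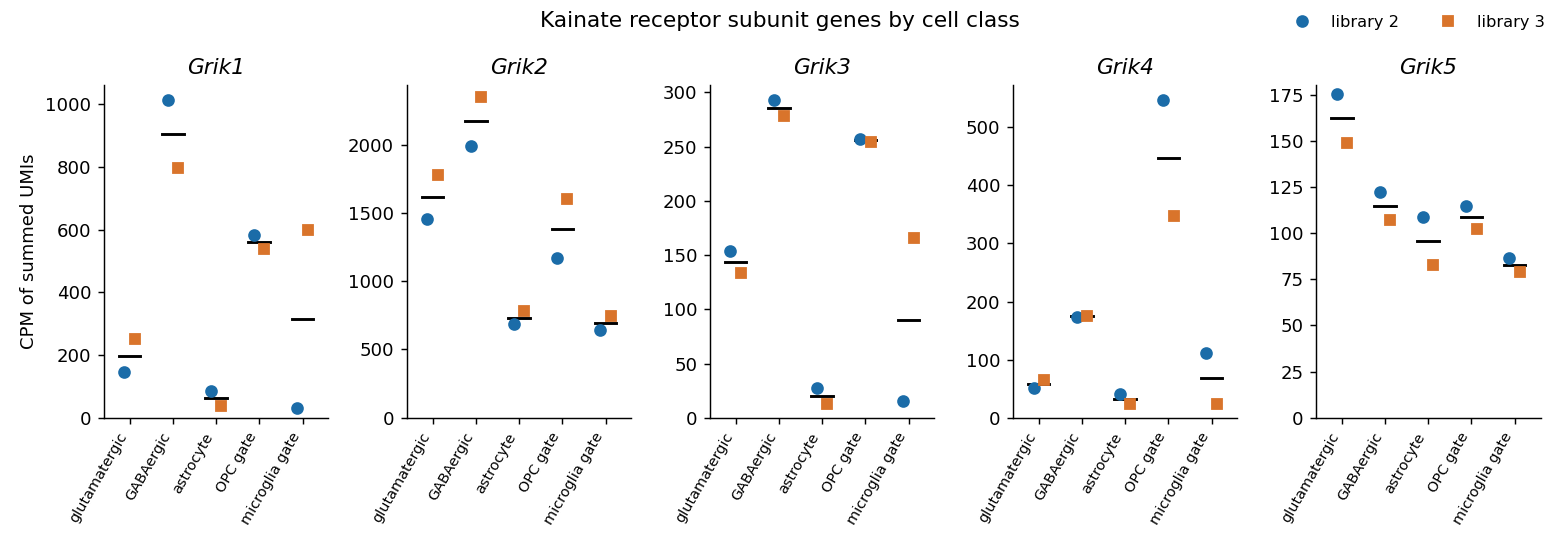
Level of each kainate receptor subunit gene, in CPM of UMIs summed over the nuclei of a population in a library (y axis, linear from 0, with its own scale for each gene), in 5 populations (x axis). Circles are library 2, squares are library 3 and bars are their mean (n = 2 libraries). *Grik1* peaks in GABAergic nuclei (1013 and 796 CPM), *Grik4* in nuclei gated as oligodendrocyte precursor cells (OPC) (547 and 347 CPM) and *Grik5* in glutamatergic nuclei (176 and 149 CPM).

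On the means of the classes, all members were lower in astrocyte nuclei than in either class of neurons, by amounts that varied widely among the members. *Grik3* stood at 27.5 and 12.7 CPM in astrocyte nuclei, and it was higher by 3.12 (SE 0.211) in glutamatergic and by 4.04 (SE 0.206) in GABAergic nuclei on the log2 scale. For *Grik1*, with 85.7 and 38.2 CPM in astrocyte nuclei, the log2 differences were 1.90 (SE 0.307) and 4.01 (SE 0.312). *Grik4*, at 40.0 and 24.2 CPM in astrocyte nuclei, was higher by 1.06 (SE 0.207) and 2.60 (SE 0.193). The edgeR adjusted p of these differences lay between 7.95e-11 for *Grik3* in GABAergic nuclei and 0.000350 for *Grik4* in glutamatergic nuclei. Since both comparisons use the same astrocyte sums, they are not independent of each other.

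*Grik2* kept a sizeable level in astrocyte nuclei, 684 and 779 CPM, and was higher by 1.26 (SE 0.147, adjusted p = 1.64e-06 by edgeR) in glutamatergic and by 1.61 (SE 0.148, adjusted p = 1.01e-07) in GABAergic nuclei. *Grik5* showed the smallest difference, with 109 and 82.5 CPM in astrocyte nuclei. Its log2 difference was 0.90 (SE 0.129, adjusted p = 1.58e-05 by edgeR) for glutamatergic and only 0.33 (SE 0.130, adjusted p = 0.0457) for GABAergic nuclei. The latter call was lost under 7 of 11 alternatives, among them DESeq2 (adjusted p = 0.239) and library totals (adjusted p = 0.0656 by edgeR), and the libraries overlap, since the astrocyte value of library 2 lay above the GABAergic value of library 3. A high share of all genes differed here, 59.0% between glutamatergic and astrocyte and 53.6% between GABAergic and astrocyte nuclei, and with all 5 members called the background is to be read beside that count. In the neurons, 29.7% of genes were higher and 29.3% lower for glutamatergic and 26.9% higher and 26.6% lower for GABAergic nuclei.

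The shares of nuclei with a UMI gave the same order for *Grik1*, *Grik3* and *Grik4*. At full depth, *Grik1* was found in 33.9% (exact Clopper-Pearson 95% interval 29.7 to 38.3%) and 36.5% (30.0 to 43.5%) of glutamatergic and in 61.9% (56.8 to 66.7%) and 53.0% (49.2 to 56.8%) of GABAergic nuclei of libraries 2 and 3. After thinning, the mean share of nuclei with *Grik1* was 15.7% in glutamatergic, 37.1% in GABAergic and 5.85% in astrocyte nuclei. For *Grik3* the thinned shares were 11.9, 28.2 and 1.82%, and for *Grik4* they were 6.52, 18.9 and 3.71%. Thinned shares of *Grik2* were alike in both classes of neurons, with 79.6 and 81.0%, and reached 52.2% in astrocyte nuclei. In neurons, the share of *Grik5* fell by the most percentage points with thinning. *Grik5* was found in 86.2 and 81.2% of glutamatergic and in 61.3 and 52.3% of GABAergic nuclei at full depth, but in 19.7 and 13.8% of them on average after thinning.

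As a measure of free RNA, the microglia gate of library 2 (84 nuclei, median 1901 UMIs), a cell type of another lineage than neurons and macroglia, had a UMI of *Grik1* in 2.70% of thinned nuclei, of *Grik2* in 29.7%, of *Grik3* in 4.05%, of *Grik4* in 2.70% and of *Grik5* in 6.76%. The astrocyte share of *Grik3* was below this value in both libraries (2.49 and 1.15%) and inside its interval of 0.844 to 11.4%. Whether *Grik3* in astrocyte nuclei is free RNA was not tested. The astrocyte shares of *Grik1* and *Grik4* (8.16 and 3.54%, and 4.76 and 2.65%) were inside the interval of the microglia value, which ran from 0.329 to 9.42% for each of these genes. The astrocyte share of *Grik2*, 47.8% (43.1 to 52.6%) in library 2, lay above the microglia interval of 19.7 to 41.5%. The library 3 astrocyte share of 56.5% also lay above it. That share was inside the interval of the library 3 microglia gate, 16.4 to 57.3% (23 thinned nuclei), which is not used as background, as given below. The *Grik2* levels of the microglia gates, 640 and 741 CPM, overlapped with the 684 and 779 CPM of astrocyte nuclei. Without the nucleus with the most *Grik2* UMIs in each sum, they were 285 and 498 CPM, against 677 and 766 CPM in astrocyte nuclei. Whether *Grik2* in astrocyte nuclei lies above free RNA was not tested. For *Grik5*, the astrocyte shares of 12.5 and 9.90% were inside the microglia interval of 2.23 to 15.1%. The microglia gate of library 2 was itself uneven, with 60.3% of its *Grik2*, 68.2% of its *Grik4* and 58.8% of its *Grik5* UMIs in 1 nucleus each. The intervals cover counting error only. The microglia gate admitted no UMI of a transporter or GABA synthesis gene, whereas the astrocyte gate did. The microglia shares may therefore be too low a background for astrocyte nuclei.

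Most glutamatergic nuclei had no UMI of *Grik1*, whereas *Grik2* and *Grik5* were found in most of them. At least 5 UMIs of *Grik1* were present in 13.0 and 19.2% of glutamatergic nuclei, although the median nucleus had none. In GABAergic nuclei, 38.9 and 33.7% had at least 5, and the median was 2 and 1 UMIs. By comparison, 88.8 and 90.4% of glutamatergic nuclei had at least 5 UMIs of *Grik2*, with a median of 21 UMIs in both libraries. *Grik5* had a median of 2 UMIs in the glutamatergic nuclei of each library. The nucleus with the most *Grik1*, a GABAergic nucleus of library 2, held 485 UMIs, which were 13.4% of all *Grik1* UMIs of its class in that library. The highest GABAergic nucleus of library 3 held 136 UMIs, or 2.87%.

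UMIs of *Grik1* to *Grik3* and of the high-affinity subunit genes were counted together per nucleus, as a description. After thinning, a UMI of at least 1 of *Grik1* to *Grik3* together with at least 1 of *Grik4* and *Grik5* was found in 20.4% ± 0.00999 of glutamatergic, 28.2% ± 3.16 of GABAergic and 8.09% ± 1.06 of astrocyte nuclei (mean ± SD, n = 2 libraries). Without thinning these shares were 87.6, 78.6 and 24.8%, so the order of the neuronal classes turned with depth. The thinned shares lay close to the product of the single shares, for example 20.4% beside 21.2% in glutamatergic nuclei of library 2 and 8.84% beside 9.02% in astrocyte nuclei. In the microglia gate the share was 4.05% (0.844 to 11.4%) in library 2, an interval that holds the astrocyte values, so no joint expression is read from these shares in astrocyte nuclei. The mean number of members with a UMI per thinned nucleus was 1.33 in glutamatergic, 1.79 in GABAergic and 0.747 in astrocyte nuclei.

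Within the glutamatergic class, nuclei with at least 2 UMIs of *Sema5a*, *Otof*, *Rspo2* or *Rorb*, marker genes of glutamatergic clusters in the study, were compared. The gates took 117 and 52, 201 and 59, 96 and 28, and 52 and 30 nuclei of libraries 2 and 3, and nuclei could pass several of them. In these overlapping gates, *Grik1* stood at 373 and 408 CPM with *Sema5a*, 279 and 251 CPM with *Otof*, 62.8 and 86.0 CPM with *Rspo2*, and 43.7 and 246 CPM with *Rorb*. The high *Rorb* value of library 3 rested on a nucleus that held 41.4% of its *Grik1* UMIs, and it was 149 CPM without that nucleus. *Grik3* was highest in the *Rspo2* gate, with 227 and 200 CPM, and stood at 62.2 and 138, 59.7 and 91.8, and 59.6 and 63.6 CPM in the *Sema5a*, *Otof* and *Rorb* gates. Its order was not that of *Grik1*, which was low in the *Rspo2* gate. Nor was it the reverse, since the *Rorb* gate of library 2 was low in both genes.

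For tests, nuclei were used that passed exactly 1 of the gates, which left 31 and 19 *Sema5a*, 111 and 30 *Otof*, 59 and 14 *Rspo2* and 38 and 22 *Rorb* nuclei, next to 140 and 85 unmarked nuclei that passed none. Each marked group was compared with the mean of the other marked groups in libraries 2 and 3, over 7328 genes. The 4 comparisons share their sums, so their values are not independent of each other.

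In the *Sema5a* group, *Grik1* and *Grik4* were both higher. *Grik4* stood at 196 and 212 CPM, against 14.1 to 44.0 CPM over the other marked groups, and was the member with the widest gap. Its log2 difference was 2.65 (SE 0.277, adjusted p = 1.35e-05 by edgeR). *Grik1* stood at 211 and 308 CPM, against 7.51 to 127 CPM in the other marked groups, with a log2 difference of 2.37 (SE 0.371, adjusted p = 0.000925). This difference fell to 1.64 (adjusted p = 0.0645) when 1 UMI sufficed for a marker. The *Sema5a* values of both genes lay above those of every other marked group in both libraries. Of all genes tested, 2.59% were called in this comparison (1.75% higher, 0.846% lower), beside 2 of 5 members, both higher. The 128 higher and 62 lower genes became 153 and 34 with library totals in place of TMM. *Grik3* (115 and 236 CPM), *Grik2* (1722 and 1892 CPM) and *Grik5* (161 and 192 CPM) did not pass, with log2 differences of 0.53, 0.17 and 0.13.

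OPC markers moved with the *Sema5a* group. The sum of 5 OPC markers was 919 and 764 CPM there and between 145 and 455 CPM in the other marked groups, and 867 and 740 CPM of it came from *Lhfpl3* alone. *Pdgfra*, the receptor gene that defines OPC, was at 8.71 and 4.00 CPM in the *Sema5a* group, against 699 and 402 CPM in OPC-gated nuclei, and *C1ql1* was at 0 in both libraries. OPC-gated nuclei were also high in *Grik1* and *Grik4*, and the part of OPC RNA in the *Sema5a* differences was not tested.

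The *Otof* group had intermediate *Grik1*. *Grik1* stood at 122 and 127 CPM, above the *Rspo2* (7.51 and 60.2 CPM) and *Rorb* groups (29.4 and 47.7 CPM) in both libraries. Its log2 difference was 1.20 (SE 0.352, adjusted p = 0.0445 by edgeR). Of all genes, 7.00% were called (3.56% higher, 3.44% lower), beside this 1 of 5 members. The call of *Grik1* was lost with DESeq2 (adjusted p = 0.771), without the library block (0.356), with thinning (0.0523) and without the deepest 5% of nuclei (0.127), and 1 nucleus held 52.8% of the *Grik1* UMIs of the group in library 3. Without the nucleus with the most UMIs of the gene in each sum, an alternative chosen after the data were seen, the adjusted p was 0.0512 by edgeR. *Grik4* stood at 41.8 and 14.1 CPM and *Grik3* at 69.7 and 109 CPM, with log2 differences of -0.75 and -0.70 that did not pass (adjusted p = 0.196 and 0.186).

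*Rspo2* nuclei had high *Grik3*, low *Grik1* and low *Grik2*. *Grik3* stood at 326 and 293 CPM in the *Rspo2* group and at 47.0 to 236 CPM over the other marked groups, so that the groups did not overlap. The log2 difference was 1.88 (SE 0.245, adjusted p = 5.29e-05 by edgeR). At full depth (median 23545 and 16210.5 UMIs), a UMI of *Grik3* was found in 54 of 59 and in 14 of 14 nuclei. After thinning, the shares of nuclei with *Grik3* were 35.6 and 21.4%. They were 16.1 and 21.1% in the *Sema5a*, 9.01 and 0% in the *Otof* and 0 and 4.55% in the *Rorb* group. *Grik1*, with 11 and 16 UMIs in all, was lower by 2.39 on the log2 scale (log2 difference -2.39, SE 0.515, adjusted p = 0.00514 by edgeR). In library 3, 1 nucleus held 62.5% of these UMIs. Low *Grik1* was not particular to the *Rspo2* group, whose 7.51 and 60.2 CPM overlapped with 29.4 and 47.7 CPM in the *Rorb* group. With thinning, the adjusted p of *Grik1* in the *Rspo2* group was 0.0918, without the library block 0.0830 and without the deepest 5% of nuclei 0.0553. *Grik2* stood at 997 and 1253 CPM, its lowest values among the glutamatergic groups in each library, with a log2 difference of -0.65 (SE 0.116, adjusted p = 0.00105 by edgeR). Without the library block its adjusted p was 0.136. *Grik4*, at 26.6 and 22.6 CPM, just missed the threshold (log2 difference -1.14, adjusted p = 0.0518 by edgeR). It passed with library totals (0.0450), and its lowest adjusted p over the alternatives was 0.00388 by edgeR. However, its log2 difference was 0.10 (adjusted p = 0.966) when 1 UMI sufficed for a marker. The share of genes called was 7.42% (4.05% higher, 3.37% lower), beside 3 of 5 members, 1 higher and 2 lower.

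The *Rorb* group had low *Grik3* and high *Grik2*. *Grik3* stood at 47.0 and 51.3 CPM, below every other marked group in both libraries, and most of it came from single nuclei, which held 59.4 and 71.4% of the UMIs. The log2 difference was -1.71 (SE 0.348, adjusted p = 0.00456 by edgeR) and became -2.89 (adjusted p = 0.000329) without the nucleus with the most UMIs in each sum. The latter alternative was chosen after the data were seen and picks nuclei by their *Grik3*, so its p-value is no added support. *Grik2* was at 2130 and 2001 CPM, above all other marked groups, with a log2 difference of 0.56 (SE 0.108, adjusted p = 0.00325 by edgeR). With thinning, its adjusted p was 0.0753, without the library block 0.248, and with 1 UMI of a marker 0.0575. *Grik1*, at a log2 difference of -1.18 (adjusted p = 0.255 by edgeR), and *Grik4*, at -0.76 (adjusted p = 0.354), did not pass. With 1 UMI of a marker, *Grik4* passed at -2.38 (adjusted p = 0.00233). In this comparison 5.35% of genes were called (3.59% higher, 1.76% lower), beside 2 of 5 members, 1 in each direction. The sum of 8 astrocyte markers was 685 and 616 CPM in the *Rorb*, 553 and 564 in the *Rspo2*, 290 and 508 in the *Sema5a* and 274 and 275 in the *Otof* group, and its part in these differences was not tested.

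*Grik5* was the member that varied least among the glutamatergic groups. It ranged from 115 CPM in the *Rorb* group of library 2 to 192 CPM in the *Sema5a* group of library 3, and it passed in none of the 4 comparisons by edgeR or DESeq2, at unadjusted p-values of 0.486 for *Sema5a*, 0.770 for *Otof*, 0.0287 for *Rspo2* and 0.0205 for *Rorb*. The unmarked group differed widely between libraries: *Grik1* was at 57.9 and 303 CPM and *Grik3* at 247 and 127 CPM there, so no level can be given for it beyond this range. Some values of the marked groups also differed widely, such as *Grik1* in the *Rspo2* group (7.51 and 60.2 CPM) and *Grik3* in the *Sema5a* group (115 and 236 CPM).

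**Figure D2:**
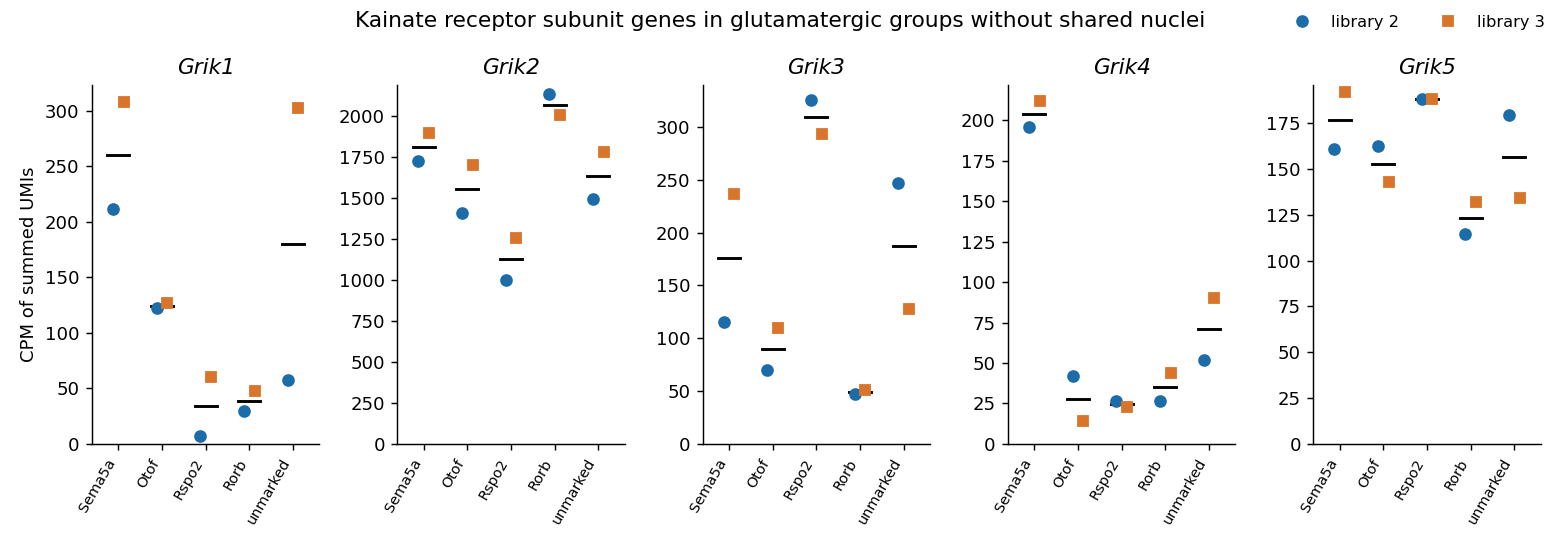
Level of each member in CPM (y axis, linear from 0, with its own scale for each gene) in glutamatergic nuclei that passed exactly 1 of the marker gates and in unmarked nuclei (x axis). Circles are library 2, squares are library 3 and bars are their mean (n = 2 libraries); *Grik4* stands at 196 and 212 CPM in the *Sema5a* group and *Grik3* at 326 and 293 CPM in the *Rspo2* group, while *Grik1* of the unmarked group differs between libraries (57.9 and 303 CPM).

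Splitting glutamatergic nuclei by *Sema5a* and *Otof* together, a description chosen after the data were seen and not tested, gave the highest levels of *Grik1* and of *Grik4* in different sets of nuclei. Both genes were present with *Sema5a* alone, and their co-occurrence in single nuclei was not measured. *Grik1* was highest where both markers were present, with 479 and 445 CPM, followed by 141 and 368 CPM with *Sema5a* alone and 116 and 108 CPM with *Otof* alone. Nuclei with neither marker had 33.8 and 215 CPM of *Grik1*. *Grik4*, in contrast, was at 144 and 153 CPM with *Sema5a* alone but at 54.6 and 34.1 CPM where both markers were present. With *Otof* alone it was at 43.6 and 14.7 CPM and with neither at 37.8 and 70.3 CPM. A UMI of *Grik1* was found in 70.1 and 83.3% of nuclei with both markers (median 19643 and 16952 UMIs) and in 45.0 and 53.6% with *Sema5a* alone (15583 and 12912 UMIs). For *Grik4* the shares were 33.8 and 20.8% with both markers and 55.0 and 53.6% with *Sema5a* alone, so the share was lower in the deeper nuclei.

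**Figure D3:**
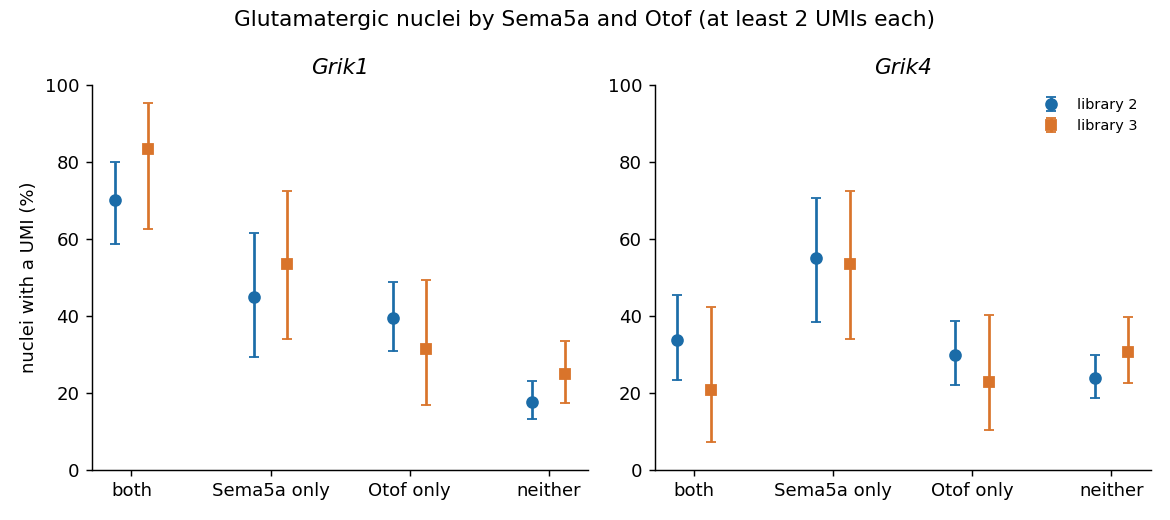
Percent of glutamatergic nuclei with at least 1 UMI of *Grik1* (left) and *Grik4* (right) on a linear axis from 0 to 100%, in nuclei with at least 2 UMIs of *Sema5a* and *Otof*, of 1 of them or of neither. Circles are library 2, squares are library 3 and error bars are exact Clopper-Pearson 95% intervals of counting error; *Grik1* is highest with both markers (70.1 and 83.3%) and *Grik4* with *Sema5a* alone (55.0 and 53.6%).

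GABAergic nuclei were split into an interneuron-marker group, with at least 2 UMIs of *Sst*, *Vip* or *Reln*, and a *Foxp2* group, named for the transcription factor gene that the study uses for intercalated cells. The groups shared no nuclei and held 83 and 116, and 152 and 336 nuclei in libraries 2 and 3, with 153 and 225 nuclei in neither. *Grik1* and *Grik2* were far higher in the interneuron-marker group. *Grik1* stood at 1895 and 1672 CPM there and at 478 and 208 CPM in the *Foxp2* group, with 1009 and 1109 CPM in the remaining GABAergic nuclei. The log2 difference was 2.46 (SE 0.201, adjusted p = 3.58e-08 by edgeR). The *Foxp2* value of library 2 was set by the nucleus with 485 UMIs, which held 73.7% of the group's *Grik1*, and was 133 CPM without it. Without the nucleus with the most UMIs of the gene in each sum, the log2 difference was 3.46 (SE 0.137, adjusted p = 6.06e-11 by edgeR). This alternative was chosen after the data were seen and picks nuclei by their *Grik1*, so its p-value is no added support. With the nucleus with the most *Grik1* UMIs left out of each sum, *Grik1* stood at 133 and 177 CPM in the *Foxp2* group, against 134 and 233 CPM in all glutamatergic nuclei. Thinned shares were 11.2 and 10.1%, against 13.9 and 17.5%. By these values, the higher *Grik1* of the GABAergic class did not extend to its *Foxp2* group, which was not tested.

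*Grik2* stood at 3216 and 3708 CPM in the interneuron-marker group and at 1658 and 1756 CPM in the *Foxp2* group, a log2 difference of 1.02 (SE 0.115, adjusted p = 2.12e-06 by edgeR). *Grik1* was found in 92.8 and 94.8% of interneuron-marker nuclei and in 29.6 and 22.0% of *Foxp2* nuclei, and after thinning in 75.9 and 73.3% and in 11.2 and 10.1%. *Grik3* (282 and 226 against 257 and 304 CPM) and *Grik4* (171 and 145 against 157 and 193 CPM) overlapped between the groups, and their log2 differences of -0.16 (95% interval -0.47 to 0.14) and -0.17 (-0.48 to 0.14) did not pass. *Grik5* was lower, with 103 and 86.9 against 134 and 121 CPM and a log2 difference of -0.42 (SE 0.141, adjusted p = 0.0417 by edgeR). That call was lost with DESeq2 (adjusted p = 0.466), without the library block (0.162), with thinning (0.401) and without the deepest 5% of nuclei (0.0644). Of 9527 genes tested, 20.8% were called (10.7% higher, 10.1% lower), beside 3 of 5 members, 2 higher and 1 lower. The sum of 8 astrocyte markers was 1397 and 532 CPM in the *Foxp2* group and 232 and 416 CPM in the interneuron-marker group. Its part in these differences was not tested.

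*Grik3* was higher with *Sst* than with the other interneuron markers. In nuclei with *Sst*, the somatostatin gene, it stood at 495 and 489 CPM (26 and 42 nuclei), in nuclei with *Reln* at 175 and 149 CPM (59 and 100 nuclei) and in the few nuclei with *Vip* at 232 and 163 CPM (11 and 11 nuclei), so that *Reln* and *Vip* overlapped. *Grik1* was high in both, at 1866 and 1510 CPM with *Sst* and 1811 and 1372 CPM with *Reln*. The *Vip* nuclei had 1024 and 1155 CPM of *Grik1* and 193 and 425 CPM of *Grik4*. These gates overlap and were not tested against each other. Nuclei with *Rarb*, used in the study for the amygdalostriatal area (88 and 205 nuclei), had *Grik1* at 817 and 417 CPM, against 482 and 283 CPM in the *Foxp2* gate. Without the highest nucleus of each sum, the values were 309 and 356 CPM with *Rarb* and 159 and 257 CPM with *Foxp2*.

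**Figure D4:**
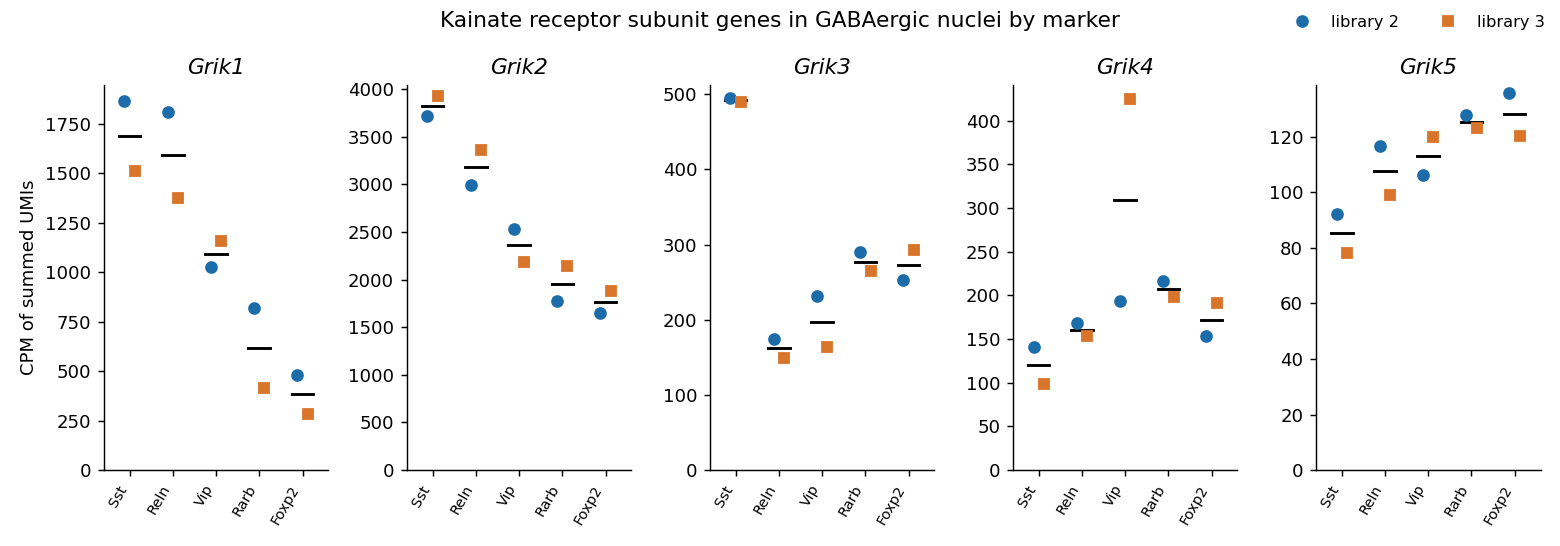
Level of each member in CPM (y axis, linear from 0, with its own scale for each gene) in GABAergic nuclei with at least 2 UMIs of the marker on the x axis; the gates overlap. Circles are library 2, squares are library 3 and bars are their mean (n = 2 libraries); *Grik3* stands at 495 and 489 CPM with *Sst* and at 175 and 149 CPM with *Reln*, and *Grik1* with *Foxp2* and *Rarb* is raised in library 2 by a nucleus with 485 UMIs.

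OPC-gated nuclei (106 and 97 nuclei, median 3333 and 3177 UMIs) had *Grik4* at 547 and 347 CPM, above each of the other 10 populations without shared nuclei in both libraries. Their *Grik1* was at 584 and 539 CPM and their *Grik3* at 257 and 254 CPM, levels that lie among those of GABAergic groups. Thinned, *Grik4* was found in 52.9 and 41.5% of OPC-gated nuclei, against 2.70% in the microglia gate of library 2. OPC-gated nuclei also held astrocyte markers at 6093 and 6192 CPM, of which 5179 and 5222 CPM were *Gpc5*. In the microglia gate of library 3 astrocyte markers reached 5419 CPM, and 1 nucleus held 93.4% of its *Grik1* UMIs, so its values are not used as background.

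The order of levels over the 11 populations without shared nuclei was described with no test. *Grik1* fell from the interneuron-marker group (1784 ± 158 CPM) over the remaining GABAergic group (1059 ± 70.8) to OPC (562 ± 31.8), each with both libraries above the next in rank. Below these, from the *Foxp2* group to the *Otof* group, neighbours were not separated in both libraries. *Grik2* was highest in the interneuron-marker group (3462 ± 348 CPM), and from the second to the ninth rank, 2066 ± 91.1 CPM in the *Rorb* group to 1125 ± 181 CPM in the *Rspo2* group, no neighbours were separated. For *Grik3* the first ranks were the *Rspo2* group (310 ± 22.9 CPM) and the remaining GABAergic group (304 ± 45.4), which overlapped. *Grik4* was highest in OPC (447 ± 141 CPM), followed by the *Sema5a* group (204 ± 11.4). *Grik5* was highest in the *Rspo2* group (188 ± 0.293 CPM) and the next ranks, the *Sema5a* group (177 ± 21.9) and the unmarked group (157 ± 31.9), overlapped with it. Astrocyte nuclei did not rank below every neuronal group. Their mean *Grik1* was 62.0 CPM against 33.9 CPM in the *Rspo2* group, and their mean *Grik4* 32.1 against 24.6 CPM. Mean *Grik5* was 95.7 CPM in astrocyte nuclei and 95.1 CPM in the interneuron-marker group. In each of these pairs the libraries overlapped. *Grik2* and *Grik3* had lower means in astrocyte nuclei than in every neuronal group.

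The genes most like each member across these 11 populations were ranked by Pearson's r of log2(CPM + 1) among 8140 protein-coding genes, as a description; the populations share libraries and dissections. For *Grik1* they were *Ece2* (r = 0.984), *Stk32b* (0.964) and *Adarb2* (0.957). The nearest to *Grik2* were *Bend4* (0.925), *Chrna7* (0.918) and *Slc22a14* (0.908). *Grik3* was most like *Ppp4r4* (0.967), *Vstm5* (0.905) and *Fam219a* (0.900), and *Grik4* most like *Selenoi* (0.896), *Sulf2* (0.890) and *Cacng4* (0.868). *Grik5*, highest in glutamatergic groups, was most like *Bmp3* (0.980), *Rph3al* (0.954) and *Ldb2* (0.945). Among the members themselves, r was highest between *Grik1* and *Grik4* (0.815) and lowest between *Grik1* and *Grik5* (-0.387). The microglia gate, with the library 3 values above, is 1 of the 11 points.

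Genes that act on kainate receptors were followed through a list of 20 partners, of which 18 could be tested between the classes. Between glutamatergic and GABAergic nuclei, 2 were higher and 5 lower by edgeR, where 22.5% of all genes were called, with a median log2 difference of -0.12 beside 0.01 over all genes. DESeq2 called 5 partners in this comparison. *Neto1*, an auxiliary subunit that slows channel closure, was lower in glutamatergic nuclei (log2 difference -0.50, adjusted p = 0.0235 by edgeR). *Grip1* and *Grip2*, scaffold genes that bind receptor tails, were lower by log2 differences of -2.33 and -2.12, and *Nrxn3*, a presynaptic adhesion gene, by -1.70. *C1ql3*, whose secreted product can bind presynaptic partners and kainate receptors, was higher (3.62), as was the scaffold gene *Dlg1* (0.87). The other auxiliary subunit gene, *Neto2*, and *Adarb1*, the enzyme gene that edits *Grik1* and *Grik2* transcripts, were not called in this comparison. Both were higher in neurons than in astrocyte nuclei, *Neto2* by 2.18 in glutamatergic and 2.40 in GABAergic nuclei and *Adarb1* by 2.59 and 2.54. Against astrocytes 10 partners were higher and 4 lower in glutamatergic nuclei, and 8 and 4 in GABAergic nuclei, beside 59.0 and 53.6% of all genes called. DESeq2 called 12 and 9 partners against astrocytes. *C1ql2* was too low to be tested.

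Among the glutamatergic groups, where 17 partners were tested, *Neto1* was higher in the *Otof* (log2 difference 0.71, adjusted p = 0.0135 by edgeR) and *Rspo2* groups (0.79, adjusted p = 0.00788) and lower in the *Rorb* group (-1.15, adjusted p = 0.00219). *Neto2* was lower in the *Rspo2* group (-0.69, adjusted p = 0.0136 by edgeR). *C1ql3* was higher in the *Rspo2* (1.27) and lower in the *Rorb* group (-0.79). In the *Sema5a* group 0 partners were called by edgeR (2 at an unadjusted p under 0.05) and 0 by DESeq2, beside 2.59% of all genes. In the *Otof*, *Rspo2* and *Rorb* groups edgeR called 2, 3 and 3 partners, beside 7.00, 7.42 and 5.35% of all genes. DESeq2 called 1, 2 and 2 partners in these groups. In interneuron-marker against *Foxp2* nuclei, 4 partners were higher and 2 lower of 18 tested, beside 20.8% of all genes, *Neto1* by 0.61 and *Grip1* by 2.17 among the former. DESeq2 called 4 partners there.

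The other ionotropic glutamate receptor genes, the AMPA, NMDA and delta families, gave 2 higher and 3 lower of 12 tested between glutamatergic and GABAergic nuclei, beside 22.5% of all genes. The log2 differences were -1.17 for *Grin2d*, -1.11 for *Gria4*, 0.89 for *Gria3* and 0.51 for *Grin2b*. In absolute size, *Grik1* (-2.11) and *Grik4* (-1.54) lay beyond all of these. Against astrocyte nuclei, 7 were higher and 2 lower in glutamatergic, and 8 and 2 in GABAergic nuclei, beside 59.0 and 53.6% of all genes, with *Grin2c* lower by log2 differences of -9.13 and -7.82.

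**Figure D5:**
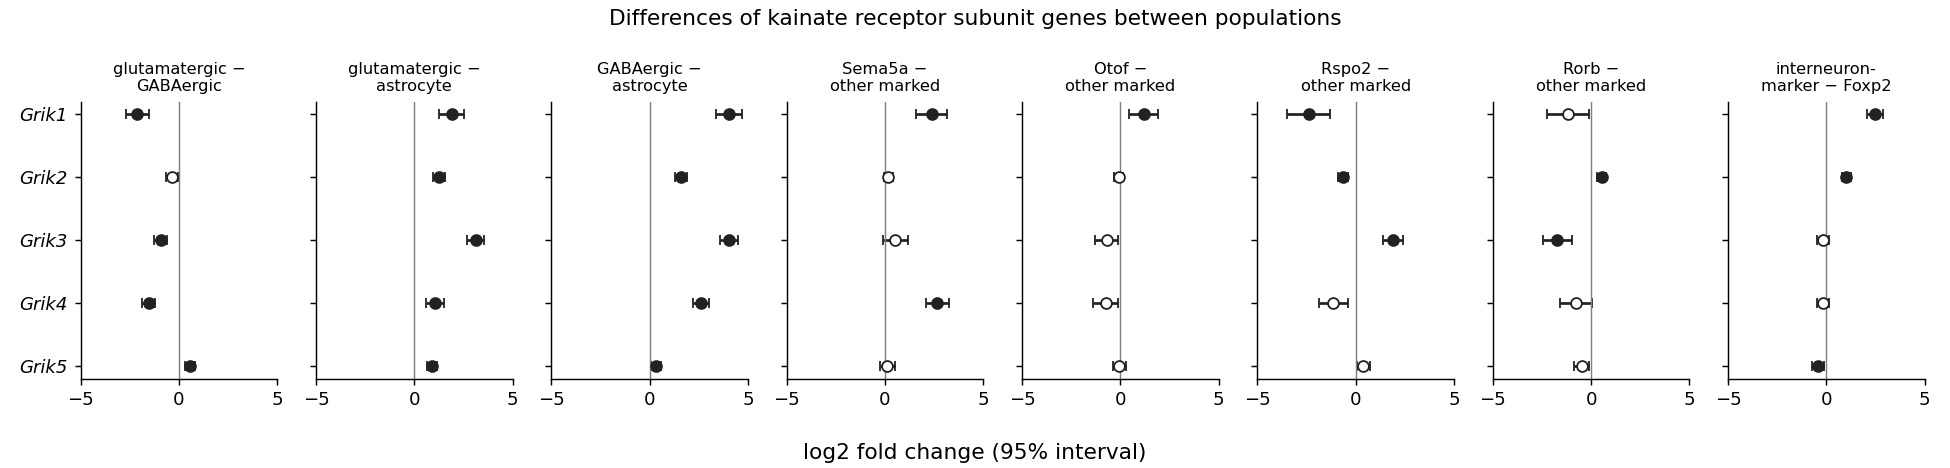
Log2 fold change of each member in the 8 comparisons, first population minus second, with 95% intervals from the edgeR fit (x axis, log2 scale; n = 2 libraries). Filled points passed an adjusted p of 0.05 over all genes tested and open points did not; *Grik1* is at -2.11 between glutamatergic and GABAergic nuclei and at 2.46 between interneuron-marker and *Foxp2* nuclei, and *Grik5* stays within 1 log2 unit of 0 throughout.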

How the data were processed

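BLA nuclei were measured by snRNAseq (10x 3' chemistry, v3.1 kit). The authors extracted and aligned the reads with Cell Ranger 7.0.1 to the 10x mouse mm10 reference, called barcodes and deposited a matrix of raw UMI counts for each library, with genes as rows and barcodes as columns; whether intronic reads were counted is not given in the sources used here. Names and types of genes and barcodes were taken from the deposited lists. Gene positions came from GENCODE vM21 on GRCm38, which held 32235 of the 32285 identifiers.

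Nuclei with more than 200 genes, less than 20% mitochondrial and less than 0.2% hemoglobin UMIs were kept, which removed 20 and 76 barcodes of libraries 2 and 3. The ribosomal criterion of the methods was not applied. No doublet caller was run: the gates drop nuclei with both transmitter types, and an alternative left out the 5% of nuclei with the most UMIs. Glial gates required 2 UMIs of *Pdgfra* and *Cspg4* (OPC) or 3 of *Csf1r*, *P2ry12* and *Cx3cr1* (microglia), with no transmitter genes and under 1% of UMIs from *Mbp*, *Mag* and *Mog*. A planned gate for oligodendrocytes and a further gene of the microglia gate are not reported here.

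UMIs were summed per population and library and tested with edgeR 4.0.16 in R 4.3.3 (quasi-likelihood, TMM, its filter on low counts, library as a block because populations of a library came from the same suspension, Benjamini-Hochberg over all genes tested, threshold 0.05). The script was tested on simulated data. The sums held 1598461 to 8398155 UMIs for classes and 249936 to 1901155 for glutamatergic groups, which limits the precision of the latter. A permutation of 2 against 2 libraries cannot reach the threshold. Thinned shares leave out nuclei under 1200 UMIs, 3 and 2 glutamatergic, 4 and 0 GABAergic and 91 and 60 astrocyte nuclei. Alternatives were DESeq2 1.42.0, library totals, no filter, no block, thinning, library 1 added, other gate limits and single nuclei left out. The named partners were *Neto1*, *Neto2*, *Adarb1*, *C1ql2* and *C1ql3* and the 4 other called genes with the largest difference between glutamatergic and GABAergic nuclei, and the likeness ranking used genes with at least 20 CPM in a population. The members, lists and comparisons were chosen with earlier results of these data known, among them the presence of *Grik1* in *Sema5a* clusters, which is therefore no independent support.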

Additional observations from a re-analysis of the deposited data

Results flagged for a closer look

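Library 1 lies outside the comparisons, and each member was found there in a larger share of barcodes than in libraries 2 and 3. *Grik1* was present in 74.4% of the 819 barcodes of library 1, against 30.1 and 30.7% in libraries 2 and 3. For *Grik2* the share was 97.6%, for *Grik3* 63.2%, for *Grik4* 39.7% and for *Grik5* 83.3%. Summed over all barcodes, *Grik1* stood at 229 CPM in library 1 and at 328 and 375 CPM in libraries 2 and 3, and *Grik2* (1085 against 1474 and 1758), *Grik3* (141 against 187 and 178) and *Grik4* (80.6 against 110 and 113 CPM) were also lower there. *Grik5* alone was higher, at 299 CPM against 158 and 120 CPM. The median depth was 7725 UMIs in library 1 and 3316 and 4116 UMIs in libraries 2 and 3.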

How the results depend on the processing

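Of 40 log2 differences of the members, 20 kept their direction and their side of the threshold under all alternatives that had a test. Leaving out a library, which allows no test, is not counted among these alternatives. Over 352 alternative values, 29 lost and 7 gained a call, and 6 values that passed under neither setting changed sign: *Grik2* in the *Otof* group (0.016) and *Grik4* between interneuron-marker and *Foxp2* nuclei (0.15) with thinning, the latter also without the deepest 5% of nuclei (0.0058), *Grik5* in the *Sema5a* (-0.10) and *Grik4* in the *Rspo2* group (0.098) with 1 UMI of a marker, and *Grik5* in the *Otof* group (0.053) without the nucleus with the most UMIs. Numbers of called genes moved more. Between glutamatergic and GABAergic nuclei (3008 genes), DESeq2 called 1581, thinning 1049 and library 1 added 1181. Thinning gave 3951 for glutamatergic (7895) and 3943 for GABAergic against astrocyte nuclei (7173). In the order *Sema5a* (190), *Otof* (513), *Rspo2* (544) and *Rorb* (392), DESeq2 called 124, 282, 326 and 233, the fit without the replicate block 86, 282, 337 and 203, thinning 29, 91, 71 and 72, and 1 UMI of a marker 77, 176, 310 and 210. Without a filter, *Sema5a* had 353. Interneuron-marker against *Foxp2* nuclei (1981) gave 971 with DESeq2, 1232 without the replicate block and 788 with thinning. Library totals moved the median of all genes by -0.13 between glutamatergic and astrocyte nuclei. The cause of these changes was not tested, apart from the fewer UMIs left by thinning. Shares with both kinds of subunit were 87.6, 78.6 and 24.8% without thinning; leaving out a library gave 20.4 to 20.4, 26.0 to 30.5 and 7.34 to 8.84%. A single library leaves no residual degrees of freedom, so gene counts have no value without a replicate.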
